A study of Mus musculus with 12 samples.

Results

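The genes described here encode the vacuolar ATPase, which is the proton pump of lysosomes, together with proteins of the lysosomal membrane, the nutrient-sensing complexes docked on it and the TFEB family of transcription factors. They were chosen by name: 42 genes were listed, and a gene was measured where an array feature carried its symbol in the platform's annotation. By this rule 41 of 42 were found, among 30145 genes with a named feature. Atp6v0c, which encodes the ring subunit of the pump's membrane sector, was not analysed here. Lamtor3 had 2 features, of which the one with the higher mean was used, and each other gene had 1.

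Expression was measured in the livers of 12 mice of the C57BL6/J strain at 12 weeks of age, each on its own Affymetrix array. The genotypes were ENT3 +/+ (WT) and ENT3 -/- (KO), with 6 mice each. ENT3, encoded by Slc29a3, is an equilibrative nucleoside transporter of the lysosomal membrane. The letter M or F in each title was read as the sex, which gives 4 groups of 3 mice. The WT group comprised males 17, 23 and 33 with females 25, 27 and 38, and the KO group comprised males 18, 19 and 39 with females 13, 40 and 69. Mice are named here by these title numbers. The sources used here do not say how the ENT3 allele was made or which mice were littermates. Nothing in the labels states how RNA extraction or array runs were batched, so p-values measure the spread between these mice only.

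The vacuolar ATPase is built from a cytosolic V1 sector that hydrolyses ATP and a membrane V0 sector that carries protons into the lysosome. The acid interior powers the hydrolases and drives the transporters that export cystine, sialic acid, amino acids and other products of digestion. The same membrane carries Ragulator and the Rag GTPases, which recruit the growth kinase complex mTORC1 when amino acids are plentiful. TFEB and its relatives are held in the cytosol by that kinase, and when released they activate genes of lysosomes and autophagy through a short DNA element with the letters CACGTG.

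The targeted gene went with the labels. Its signal, in log2 units as for all levels below, lay between 4.10 and 4.19 in the KO mice and between 4.82 and 5.29 in the WT mice. Correlations between arrays of a group ran from 0.987 to 0.995 over the transcript features. Several array-wide measures also differed between the genotypes. The mean of the poly-A spikes, which are RNAs added to the sample before labelling, was 5.44 ± 0.36 (SD, n = 6) in KO and 6.30 ± 0.32 in WT, and the 95th percentile of the negative control features was 6.68 ± 0.15 in KO and 6.32 ± 0.08 in WT. In an exact two-sided permutation of genotype within sex each of these had p = 0.005, the smallest p this design allows, or 0.010 after Benjamini-Hochberg adjustment over 6 such measures. A signal at or below the 95th percentile of the negative controls is called within the negative controls here. This held in all 12 mice, each against its own array, for 10 of the 41 genes, whereas 25 of the 41 lay above it on all 12 arrays.

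Most of these genes showed little difference in signal between the genotypes. In a limma fit with Benjamini-Hochberg adjustment over 65956 transcript features and a threshold of 0.05, 6 of 41 genes fell in KO livers, namely Slc17a5, Ctns, Tmem175, Lamtor2, Lamtor3 and Flcn. Only Npc2 of the 41 rose. Of all features 4.47% were lower and 5.28% higher by the same rule, so the count of 1 in 41 that rose lay below the background and the count of 6 that fell above it. Among the 5137 named genes above the negative controls on all 12 arrays, however, 22% were lower and 12.4% higher, against 3 and 0 of the 25 genes described here that met the same condition. Under quantile normalisation the features called lower outnumbered those called higher, at 6.20% against 3.87%, and the same held when arrays were centred on their medians, at 6.07% against 3.85%. With the array's poly-A mean as a covariate none of the 41 genes was called by limma, and 3 of all features were; with no sex term in the model only Lamtor2 and Tmem175 were called.

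The estimated difference, KO minus WT over both sexes, was below 0.5 on the log2 scale in size for 39 of 41 genes. Its median was -0.10 over the 41 genes and 0.05 over all features, and it was -0.05 over the named genes above the negative controls. The estimate was positive for 10 genes. An unadjusted p under 0.05 was reached by 18 of 41. The share of all features that reached it was not counted, so such counts, here and below, have no background beside them. In males all KO values lay below all WT values for 6 of the 41 genes and above them for 1. In females the same held for 10 and 4 genes. The share of all features separated within a sex was not counted either. Such separation in single genes below therefore has no background beside it. Only Slc17a5 and Ctns passed a 1.5-fold difference. The 95% interval lay wholly inside 1.5-fold for 27 genes, while for the other 14 it reached past 1.5-fold.

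**Figure D1:**
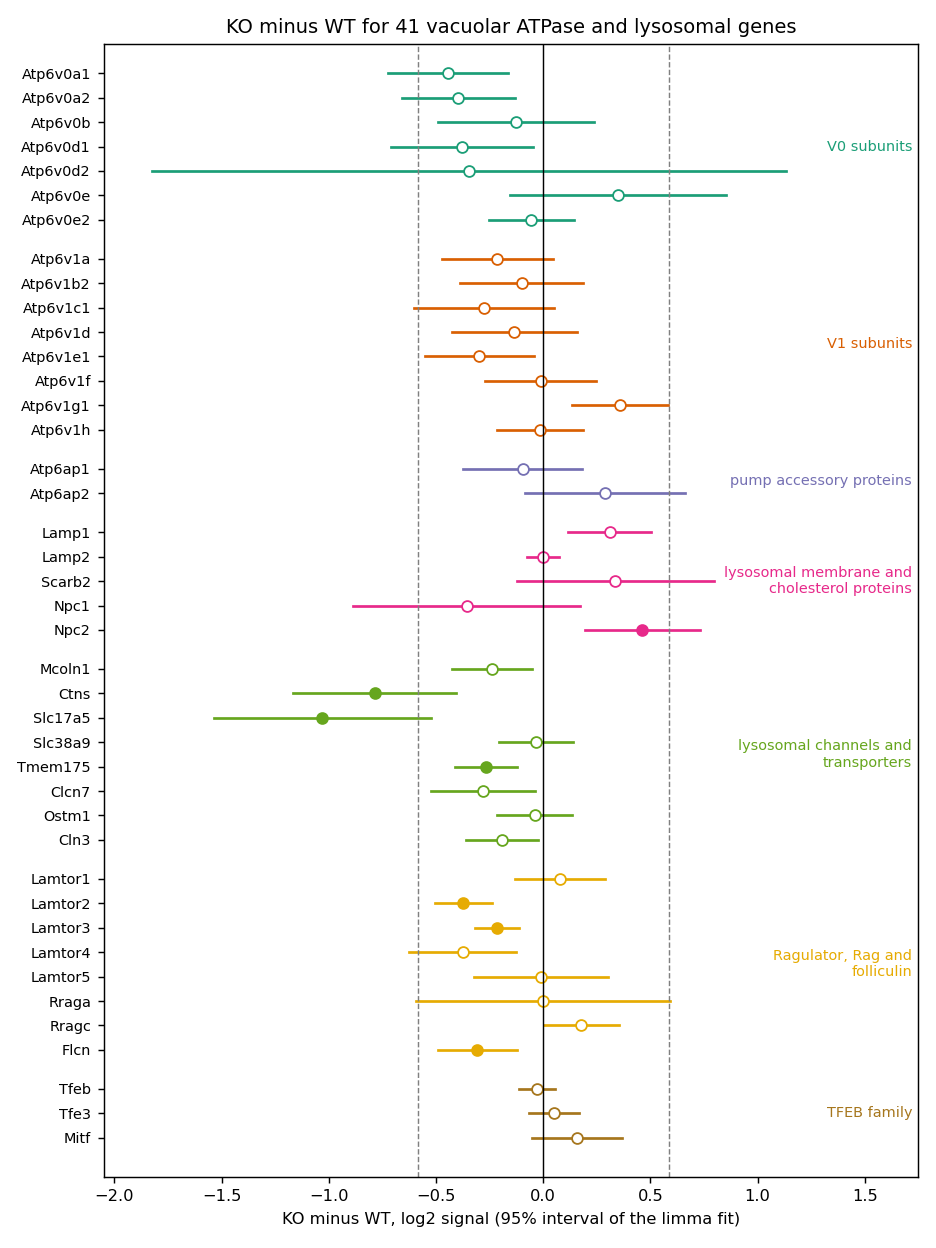
KO minus WT in log2 signal for the 41 measured genes, grouped by role, with the 95% interval of the limma fit over 12 mice. Filled points mark the 7 genes past the adjusted threshold of 0.05, and dashed lines mark 1.5-fold. The points for Slc17a5 (-1.03) and Ctns (-0.79) lie outside the dashed lines, and no gene of the V0 or V1 sectors is filled.

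The subunits of the pump gave no called difference. None of the 7 measured V0 genes, the 8 V1 genes or the 2 genes of accessory proteins passed the limma threshold, although 5 of these 17 had an unadjusted p under 0.05. The estimate was below 0 for 14 of the 17. The median difference was -0.35 for the V0 genes and -0.12 for the V1 genes.

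Within the V0 sector, Atp6v0a1 and Atp6v0a2 encode alternative forms of the large subunit that lines the proton path. For Atp6v0a1 the WT signals spanned 8.57 to 8.79 (males) and 8.73 to 8.89 (females), and the KO signals 8.30 to 8.70 (males) and 7.71 to 8.40 (females). Its KO female values all lay below those of the WT females, while the males overlapped. The difference was -0.44 ± 0.12 (SE), with a limma adjusted p of 0.052. Atp6v0a2 was alike in size, at -0.40 ± 0.12 with a limma adjusted p of 0.065, and all 6 KO mice lay below the WT mean of their sex. Without KO female 40, whose Atp6v0a1 signal of 7.71 was the lowest of the 12, the difference for Atp6v0a1 was -0.33 and its limma adjusted p was 0.037.

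Atp6v0d1, the widely expressed form of the subunit that couples the V0 ring to the central stalk, had the highest signal of the sector. It read 10.80, 11.03 and 11.01 in WT males and 10.62, 11.05 and 10.62 in KO males, and 10.61, 10.91 and 11.39 in WT females and 10.33, 10.71 and 10.16 in KO females. The genotypes overlapped in both sexes. The means were 10.96 ± 0.26 (SD, n = 6) in WT and 10.58 ± 0.31 in KO, and the difference of -0.38 ± 0.15 had a limma adjusted p of 0.153. Its relative Atp6v0d2, known from osteoclasts and macrophages, was the least steady of the 41 genes. In WT females it read 8.68, 6.10 and 8.23, and in KO females 8.31, 4.87 and 8.42, so mice of 1 group differed by more than the genotypes did. The difference of -0.35 ± 0.66 (limma adjusted p = 0.812) turned to 0.24 without KO female 40. That mouse had the lowest Atp6v0d2 signal of the 12 and the highest mean of 16 macrophage markers, 11.53. Of the remaining V0 genes, Atp6v0e gave 0.35 ± 0.23 and Atp6v0b -0.13 ± 0.16, neither of them called, and Atp6v0e2 stayed within the negative controls in every mouse.

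In the V1 sector, the catalytic subunit gene Atp6v1a had 7.53 ± 0.18 in WT and 7.31 ± 0.21 in KO, and its nucleotide-binding partner Atp6v1b2 had 8.66 ± 0.26 and 8.56 ± 0.27. Neither difference passed the test, with limma adjusted p-values of 0.309 and 0.705. Atp6v1e1 and Atp6v1g1 encode subunits of the peripheral stalks that hold the catalytic head in place. Their estimates ran in opposite directions. Atp6v1e1 read 11.07, 10.92 and 10.95 in WT males and 10.84, 10.68 and 10.35 in KO males. Females read 11.08, 10.87 and 11.42 in WT and 11.04, 10.92 and 10.69 in KO. The KO males lay below the WT males, but in females the genotypes overlapped, and the difference over both sexes was -0.30 ± 0.11 (limma adjusted p = 0.142). Atp6v1g1 was 8.07, 7.87 and 8.16 in WT females and 8.72, 8.48 and 8.36 in KO females, with a difference over both sexes of 0.36 ± 0.10 (limma adjusted p = 0.052). The KO females lay above all WT mice for this gene. For Atp6v1h, the regulatory subunit, the difference was -0.02 ± 0.09, with a 95% interval of -0.22 to 0.19. The differences for Atp6v1c1, Atp6v1d and Atp6v1f lay between -0.28 and -0.01 and were not called, and Atp6v1f stayed within the negative controls in every mouse.

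The accessory proteins help to assemble the pump and sort it. Atp6ap1 read 9.57, 9.56 and 9.54 in WT males and 9.29, 9.82 and 9.06 in KO males, and 9.39, 9.68 and 9.53 in WT females and 9.45, 9.73 and 9.35 in KO females. KO values lay on both sides of the WT values. The means were 9.55 ± 0.09 in WT and 9.45 ± 0.29 in KO, and Atp6ap2, also known as the prorenin receptor, had 9.32 ± 0.22 and 9.61 ± 0.39. The spread between KO mice exceeded both differences, -0.10 and 0.29, and the limma adjusted p-values were 0.707 and 0.351.

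**Figure D2:**
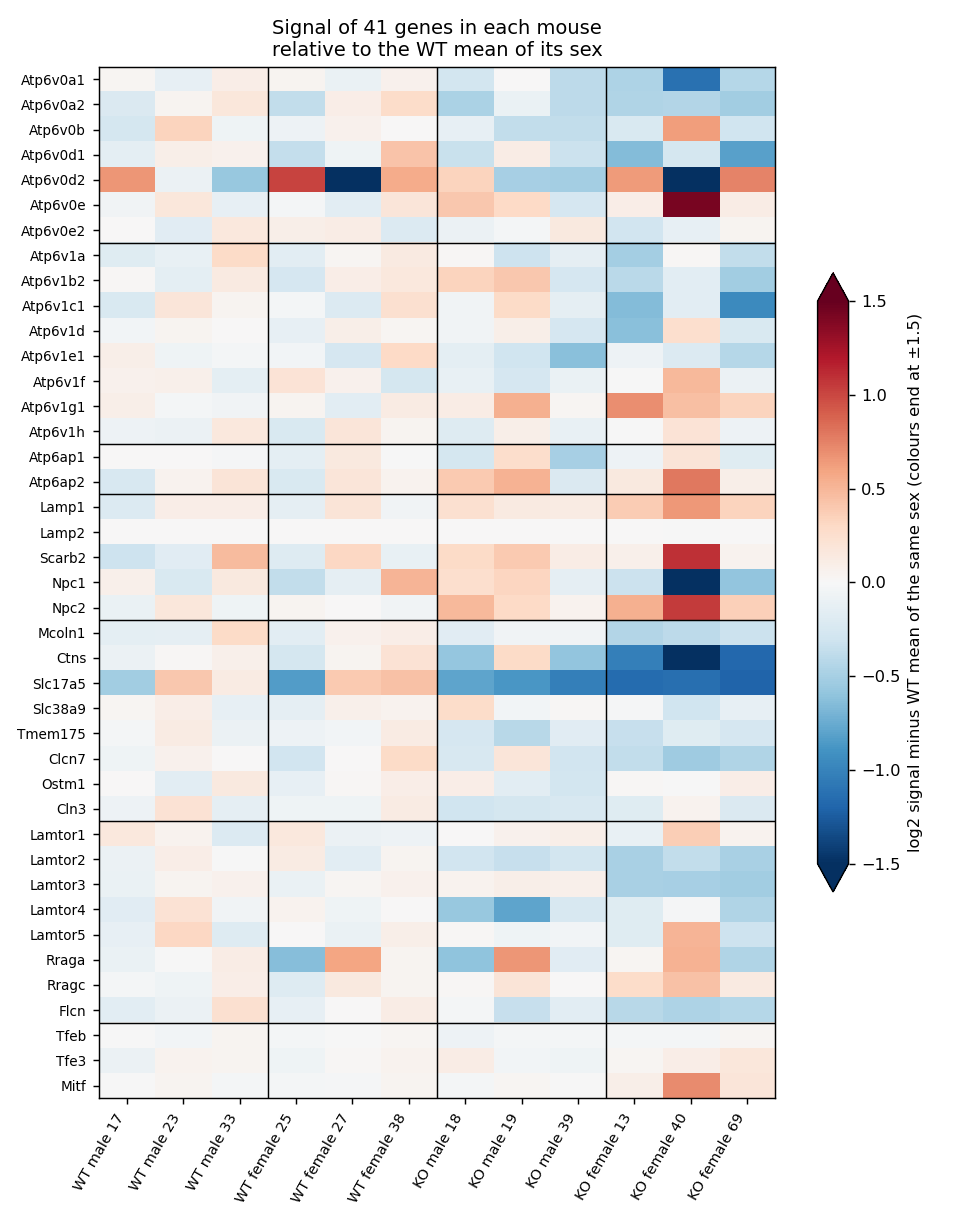
Log2 signal of the 41 genes in each of the 12 mice, minus the WT mean of the same sex. Horizontal lines divide the role groups in the order V0, V1, accessory, membrane and cholesterol proteins, channels and transporters, Ragulator with Rags and folliculin, and TFEB family. Slc17a5 is below 0 in all 6 KO mice, Ctns most of all in the 3 KO females, and KO female 40 departs from the other 2 KO females for Atp6v0d2, Atp6v0e, Scarb2 and Npc1.

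Among the structural and cholesterol-handling proteins of the lysosome, 1 of 5 genes was called, against 5.28% of all features higher and 4.47% lower. Npc2, the soluble protein that hands cholesterol to NPC1 inside the lysosome, rose. It read 5.74, 6.00 and 5.78 in WT males and 5.89, 5.85 and 5.80 in WT females. In KO males it was 6.33, 6.13 and 5.89, and in KO females 6.38, 6.90 and 6.21. The KO females lay above every WT mouse, while the lowest KO male lay among the WT values. The difference was 0.46 ± 0.12 (limma adjusted p = 0.038), with all 6 KO mice above the WT mean of their sex. Of the 12 mice only KO female 40, at 6.90, lay above the negative controls, whose own 95th percentile was higher in KO as given above. The call was kept in 4 of the 12 fits that each left out 1 mouse. A filter on dim features left Npc2 out.

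Npc1, the membrane protein to which Npc2 passes cholesterol, was not called. Its values were 10.34, 10.57 and 11.22 in WT females and 10.39, 9.03 and 10.12 in KO females, and KO female 40 was the lowest of all 12 mice. The difference over both sexes was -0.36 ± 0.24 (limma adjusted p = 0.417) and became -0.15 without that mouse.

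Lamp1, a glycoprotein that coats the inner face of the lysosomal membrane, had 16.61 ± 0.20 in WT and 16.92 ± 0.12 in KO. KO values exceeded all WT values within each sex, but over both sexes the ranges of the genotypes overlapped. The difference of 0.31 ± 0.09 missed the threshold, with a limma adjusted p of 0.052, and it turned to -0.13 under quantile normalisation (limma adjusted p = 0.505). For its relative Lamp2 no difference could be read, since the feature gave 18.05 or 18.06 on all 12 arrays. It was 1 of 31 transcript features that varied by less than 0.01 over the arrays below the common ceiling of 19.93, and 16 of these 31 had a mean above 16. Scarb2, the receptor that carries glucocerebrosidase to lysosomes, gave 0.34 ± 0.21 (limma adjusted p = 0.376), with the highest value, 13.72, again in KO female 40.

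The differences largest in size were those of Slc17a5 and Ctns, which encode transporters that empty the lysosome. Of the 8 genes for lysosomal channels and transporters 3 fell, none rose, and all 8 estimates were below 0, with a median of -0.25. Of all features 4.47% were lower and 5.28% higher. Only 1 of the 8, Slc17a5, lay above the negative controls on all 12 arrays, and 4 lay within them in every mouse. Slc17a5 encodes sialin, which exports sialic acid. Its signal was 10.57, 11.50 and 11.21 in WT males and 10.30, 10.22 and 10.07 in KO males. In females it was 9.51, 10.73 and 10.79 in WT and 9.19, 9.21 and 9.14 in KO. Within each sex every KO mouse lay below every WT mouse, whereas KO males overlapped WT females. How many of all features separate in this way within a sex was not counted. The difference over both sexes was -1.03 ± 0.23 (limma adjusted p = 0.019), which corresponds to 0.49 of the WT level on the deposited scale. It was -0.90 ± 0.32 in males and -1.16 ± 0.32 in females, and neither value passed the threshold within a sex (limma adjusted p = 0.259 and 0.064). Leaving out each mouse in turn gave -1.24 to -0.92, and Slc17a5 was called in all 12 of these fits.

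Ctns encodes cystinosin, the exporter of cystine whose loss causes cystinosis. It read 8.37, 8.47 and 8.54 in WT males and 7.88, 8.75 and 7.87 in KO males. The females were 7.91, 8.22 and 8.40 in WT and 7.15, 6.55 and 7.00 in KO. All KO females lay below all other mice, while KO male 19 had the highest value of the 12. The difference was -0.79 ± 0.17 over both sexes (limma adjusted p = 0.017), -1.28 ± 0.24 in females (limma adjusted p = 0.015) and -0.29 ± 0.24 in males (limma adjusted p = 0.706). The difference between the sexes themselves, -0.98, did not pass its test (limma adjusted p = 0.615 for the interaction). Ctns was called over both sexes in all 12 fits that left out a mouse. With the poly-A mean as a covariate the difference over both sexes was -0.06 for Ctns (limma adjusted p = 0.986) and -0.48 for Slc17a5 (limma adjusted p = 0.876). The poly-A mean was 6.06 in KO male 19, 5.67 in KO male 18 and 5.29 in KO male 39. It ran from 5.10 to 5.26 in KO females and from 5.98 to 6.81 in WT mice. Whether Ctns follows this measure from mouse to mouse was not tested.

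The stretches before the start sites of these 2 genes are shown because they are the only 2 of the 41 past 1.5-fold. Each is the 150 bases before the annotated start of the RefSeq annotation on build GRCm38.p6, read 5′ to 3′ along the gene's strand, which is the minus strand for both. The stretch for Slc17a5 is chr9:78588046-78588195 and that for Ctns, which has 2 annotated starts, is chr11:73199020-73199169. Capitals mark matches to the letters CANNTG, the general E-box.
Slc17a5: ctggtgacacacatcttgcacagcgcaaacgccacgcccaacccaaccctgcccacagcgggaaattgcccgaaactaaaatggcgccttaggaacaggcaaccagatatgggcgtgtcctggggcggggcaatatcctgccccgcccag
Ctns: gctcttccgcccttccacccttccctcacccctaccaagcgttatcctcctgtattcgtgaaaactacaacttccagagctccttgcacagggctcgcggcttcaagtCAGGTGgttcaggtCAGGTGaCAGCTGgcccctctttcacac
The Slc17a5 stretch holds 0 matches and the Ctns stretch 3, whereas the 150 bases before the other start of Ctns (chr11:73199043-73199192) hold 1. Neither gene has CACGTG within the 250 bases before to 50 bases after a start. A match, or its lack, describes these letters only.

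Tmem175, a potassium and proton channel of the lysosome, was the third gene of this set to fall. It read 5.33, 5.48 and 5.27 in WT males and 5.11, 4.95 and 5.19 in KO males, and 5.13, 5.17 and 5.33 in WT females and 4.87, 5.03 and 4.96 in KO females. KO lay below WT without overlap within each sex. The difference was small, -0.27 ± 0.06 (limma adjusted p = 0.029), and all 12 mice lay within the negative controls, so that the filter on dim features left the gene out. The call was kept in 5 of the 12 fits that left out a mouse.

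The other 5 genes of the set were not called. Mcoln1, a calcium-releasing channel, gave -0.24 ± 0.08 (limma adjusted p = 0.109), with KO females at 5.74 to 5.86 below WT females at 6.02 to 6.28. Clcn7, the chloride and proton exchanger, gave -0.28 ± 0.11 (limma adjusted p = 0.15), and its partner subunit Ostm1 gave -0.04 ± 0.08. Cln3, the protein lost in juvenile Batten disease, gave -0.19 ± 0.08 (limma adjusted p = 0.159). Slc38a9, the arginine sensor that signals to the Rag GTPases, gave -0.03 ± 0.08, with a 95% interval of -0.21 to 0.14. The signals of Ostm1, Cln3 and Slc38a9 lay within the negative controls in all 12 mice, and the filter on dim features left out Mcoln1 as well.

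Of the 8 genes for Ragulator, the Rag GTPases and folliculin, 3 fell and none rose, against 4.47% and 5.28% of all features. Of the 6 above the negative controls on all 12 arrays 2 fell, against 22% of all such named genes. Ragulator is a scaffold of 5 small proteins that anchors the Rags to the lysosome. Lamtor2 was the only one of the 41 genes whose KO and WT mice did not overlap over both sexes, against 1.94% of all features with KO below WT and 1.97% with KO above. WT mice read 7.24, 7.43 and 7.33 (males) and 7.49, 7.21 and 7.41 (females). KO mice read 7.05, 6.99 and 7.06 (males) and 6.88, 7.00 and 6.88 (females). The gap between the lowest WT and the highest KO mouse was small, as was the difference of -0.37 ± 0.06 (limma adjusted p = 0.004), 0.77 of the WT level. It was called in all 12 fits that left out a mouse, with values of -0.41 to -0.34. With the poly-A covariate the difference was -0.34 and was not called (limma adjusted p = 0.566).

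Lamtor3, which pairs with Lamtor2 in the scaffold, showed its difference in the females. It was 7.64, 7.76 and 7.80 in WT females and 7.25, 7.23 and 7.21 in KO females. Males read 7.54, 7.68 and 7.70 in WT and 7.69, 7.73 and 7.71 in KO. The 3 KO females thus lay below all other mice, and KO males lay among or just above WT males. The difference was -0.50 ± 0.07 in females (limma adjusted p = 0.003) and 0.07 ± 0.07 in males (limma adjusted p = 0.745), and -0.22 ± 0.05 over both sexes (limma adjusted p = 0.017). The interaction of genotype and sex, -0.57, did not pass the threshold (limma adjusted p = 0.178). A further feature of Lamtor3, with a mean of 6.19, gave -0.18 ± 0.14 (limma adjusted p = 0.495), and the mean of both features was not called.

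The other Ragulator genes did not pass the test. Lamtor4 came nearest, at -0.37 ± 0.11 (limma adjusted p = 0.065), with KO males at 6.73, 6.51 and 7.06 below WT males at 7.13, 7.52 and 7.25. Lamtor1, whose lipid anchor holds the scaffold on the membrane, gave 0.08 ± 0.09, and Lamtor5 gave -0.01 ± 0.14. The Rag GTPases bind in pairs and switch with amino acid supply. Rraga read 9.74, 9.83 and 9.94 in WT males and 9.24, 10.50 and 9.66 in KO males, and 9.44, 10.67 and 10.11 in WT females and 10.10, 10.60 and 9.62 in KO females. The genotypes overlapped in both sexes. The means were 9.95 ± 0.42 in WT and 9.95 ± 0.54 in KO, but the difference had a wide 95% interval of -0.59 to 0.59. Rragc gave 0.18 ± 0.08 (limma adjusted p = 0.200), with all 6 KO mice above the WT mean of their sex.

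Flcn encodes folliculin, which switches Rragc and its relative. It read 5.17, 5.24 and 5.57 in WT males, 5.30, 4.98 and 5.17 in KO males, 5.08, 5.21 and 5.31 in WT females and 4.79, 4.74 and 4.78 in KO females. The KO females lay below all other mice, and the males overlapped. The difference of -0.31 ± 0.08 lay just inside the threshold (limma adjusted p = 0.043), with all 12 mice within the negative controls. The filter on dim features left Flcn out, and it was called in 3 of the 12 fits that left out a mouse.

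**Figure D3:**
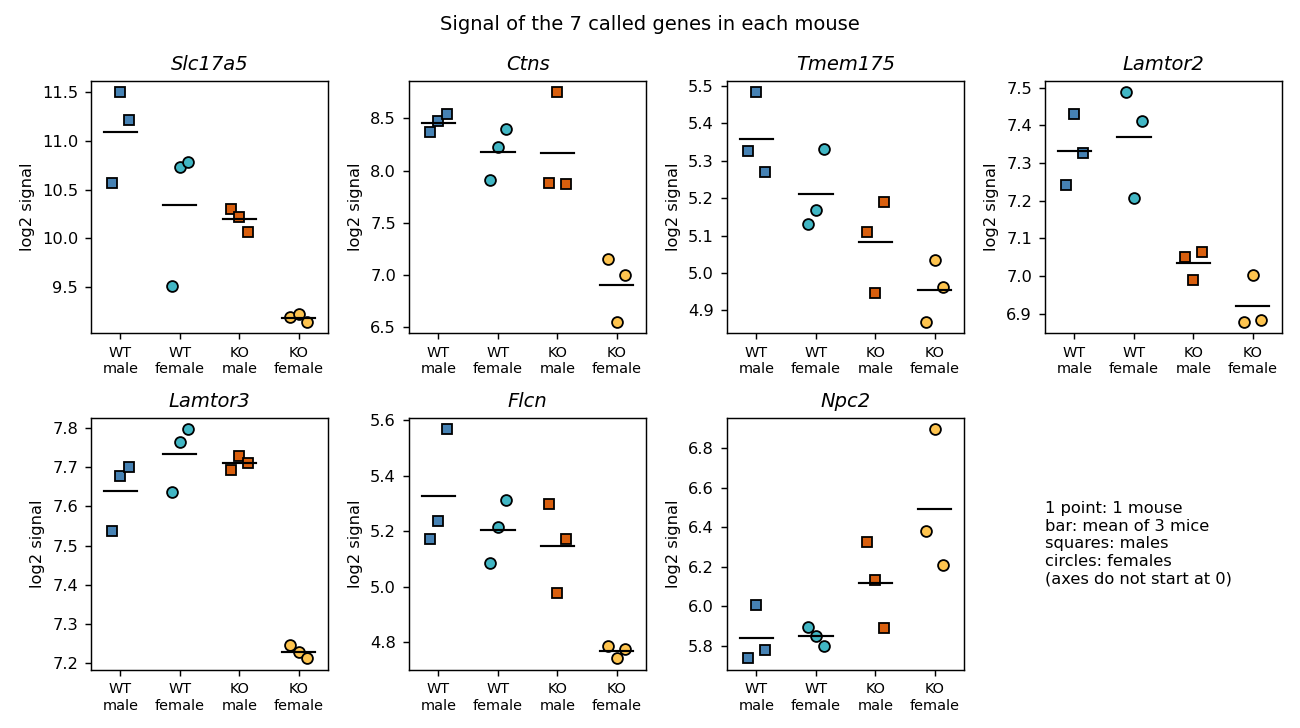
Log2 signal of the 7 called genes in each mouse by group, with bars at the means of 3 mice; each panel has its own axis, which does not start at 0. Lamtor2 is the only panel in which the 6 KO mice all lie below the 6 WT mice, and for Lamtor3, Ctns and Flcn the KO females lie below the other 9 mice.

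The transcription factors of the TFEB family were not called at the level of their own mRNA. Tfeb was 4.21 ± 0.03 in WT and 4.18 ± 0.03 in KO, Tfe3 was 4.48 ± 0.06 and 4.53 ± 0.09, and Mitf was 4.82 ± 0.09 and 4.98 ± 0.23. None of the 3 had an unadjusted p under 0.05. Mitf read 4.88, 4.93 and 4.87 in WT males and 4.86, 4.92 and 4.89 in KO males, and 4.71, 4.72 and 4.78 in WT females and 4.83, 5.44 and 4.91 in KO females. Its highest value, 5.44, was that of KO female 40. All 3 genes lay within the negative controls in every mouse, so a difference in these mRNAs could have gone undetected, and the activity of the proteins was not measured.

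The element that these factors bind was looked for in the promoters of the 42 genes, of which 34 had an entry among the RefSeq promoters (250 bases before to 50 after the start, GRCm38.p6). The letters CACGTG, which read the same on both strands, were present in 11 of 34, or 32.4%, and in 8.09% of 27025 genes with an entry. The longer form TCACGTGA, every match of which also counts as a CACGTG match, was present in 6 of 34, or 17.6%, and in 1.12% of the genes. These 6 are shown because they carry the element for which the lysosomal gene network is known. Each line gives the letters around the match, 5′ to 3′ along the gene's strand, with TCACGTGA in capitals.
Atp6v0d1: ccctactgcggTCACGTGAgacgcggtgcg
Atp6v0e: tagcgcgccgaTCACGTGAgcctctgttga
Atp6v1a: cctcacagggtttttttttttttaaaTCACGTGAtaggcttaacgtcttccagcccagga
Mcoln1: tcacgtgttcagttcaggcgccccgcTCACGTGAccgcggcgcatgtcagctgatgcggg
Clcn7: ccgatgatagaTCACGTGAgacctgggcgc
Cln3: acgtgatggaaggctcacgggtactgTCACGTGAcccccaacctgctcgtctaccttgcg
The match begins 4 bases before the start in Atp6v0d1 (chr8:105566050-105566079, minus strand), 132 before it in Atp6v1a (chr16:44139358-44139417, minus strand), 46 before it in Mcoln1 (chr8:3500447-3500506, plus strand) and 122 before it in Cln3 (chr7:126583325-126583384, minus strand). It begins at base 3 of the transcript in Atp6v0e (chr17:26676387-26676416, plus strand) and at base 7 in Clcn7 (chr17:25133386-25133415, plus strand). Of the 11 genes with CACGTG, all of them measured, none was called, and the median difference was -0.19, with a range from -0.38 (Atp6v0d1) to 0.35 (Atp6v0e). For the 22 measured genes with a promoter entry and no CACGTG, 5 were lower and 1 higher in KO, and the median was -0.04. Of all features 4.47% were lower and 5.28% higher. Among the named genes above the negative controls on all 12 arrays the shares were 22% and 12.4%. Of the called genes without CACGTG, Npc2, Tmem175 and Flcn were left out by the filter on dim features. The numbers are given as a description, without a test.

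Sex was next considered on its own. Within males 0 of 41 genes were called in the limma fit, although 5 had an unadjusted p under 0.05; of all features 0.579% were higher and 0.506% lower. Within females 3 genes, Ctns, Lamtor2 and Lamtor3, were lower and 0 higher, against 3.06% and 3.13% of all features, and 18 had an unadjusted p under 0.05. The estimate was larger in size in females for 29 of 41 genes. The test of the difference between the sexes called 0 of 41 genes, with 2 at an unadjusted p under 0.05 (Ctns and Lamtor3), and 0.00152% of all features. No sex-specific response was therefore shown for any of these genes.

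The level itself was compared between the sexes as well, averaging over the genotypes. By limma 0 of 41 genes were called, with 10 at an unadjusted p under 0.05, against 1.23% of all features called. The nearest to the threshold was Ctns, at -0.77 for females minus males (limma adjusted p = 0.066), followed by Lamtor3 at -0.19 (limma adjusted p = 0.090) and Slc17a5 at -0.88 (limma adjusted p = 0.112).

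**Figure D4:**
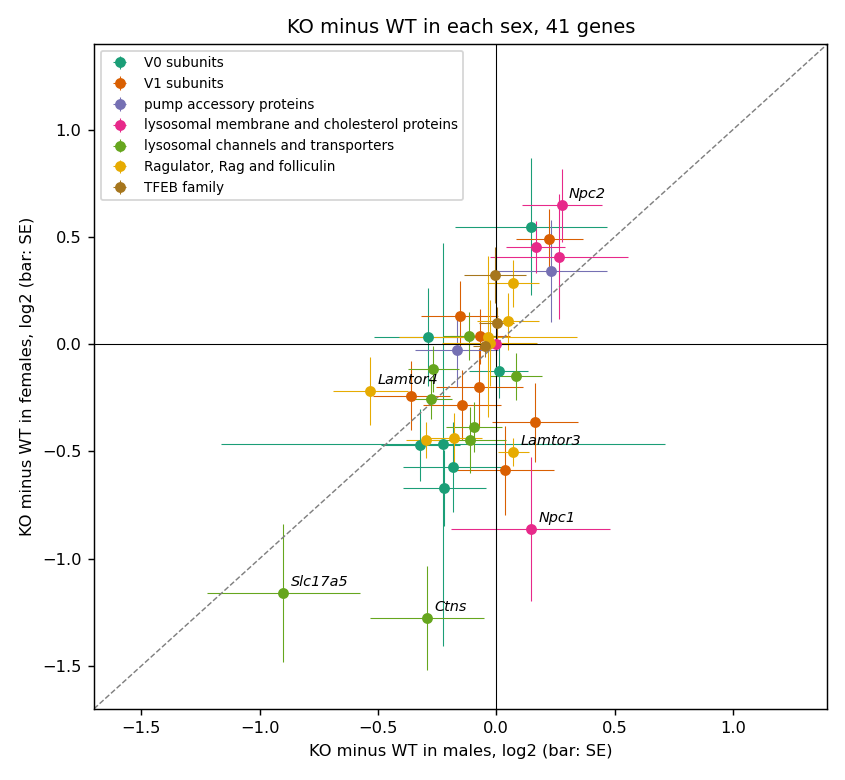
KO minus WT in males (horizontal) and in females (vertical) for the 41 genes, in log2 units with bars of 1 SE; colours give the role groups and the dashed line marks equal differences. Slc17a5 lies near the dashed line at -0.90 and -1.16, whereas Ctns (-0.29 and -1.28) and Lamtor3 (0.07 and -0.50) lie below it.

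Genes of the same pathways outside the 42 were taken from 4 further lists with 94 names, of which 92 were measured. In the limma fit over both sexes 5 of 92 rose and 17 fell, or 5.43% and 18.5%. The 17 include Slc29a3, the targeted gene, whose fall goes with the design. Of all features 5.28% were higher and 4.47% lower. Among the named genes above the negative controls on all 12 arrays the shares were 12.4% and 22%. These shares also stand beside the counts of the single lists below. Of the 92 genes, 31 lay above the negative controls on all 12 arrays, and of these 2 rose and 3 fell. A further 42 of the 92 lay within the negative controls in every mouse. Of 28 measured genes for amino acid sensing and mTORC1, 10 fell and none rose, with a median of -0.17. Only 8 of the 28 lay above the negative controls on all 12 arrays, and 2 of these fell. Another 15 lay within them in all 12 mice. Nprl2, a subunit of the GATOR1 complex that turns the Rags off, had WT values of 5.55 to 6.59 (median 6.08) and KO values of 4.75 to 5.38 (median 4.94), without overlap. The difference was -1.02 ± 0.17 (limma adjusted p = 0.005), and every mouse of 3 of the 4 groups lay within the negative controls. Wdr59, of the opposing GATOR2 complex, gave -0.35 ± 0.07 (limma adjusted p = 0.010), and Tsc2, which restrains mTORC1 at the lysosome, gave -0.58 ± 0.11 (limma adjusted p = 0.010). The list holds both activators and inhibitors of mTORC1, and both kinds are among the 10.

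Of 18 further pump genes, which are tissue-restricted isoforms and assembly factors, 2 fell and none rose. These were Rogdi, a subunit of a complex that regulates V1 assembly, at -0.91 ± 0.24 (limma adjusted p = 0.042), and Vma21, an assembly chaperone of V0, at -0.34 ± 0.05 (limma adjusted p = 0.004). Vma21 lay within the negative controls in all 12 mice, and Rogdi was not above them on all 12 arrays. Only 1 of the 18 genes was above them on all 12 arrays, and 12 lay within them in every mouse. Oxr1 gave -0.14 ± 0.04 and was not called (limma adjusted p = 0.064). Among 12 measured regulators of TFEB, 2 fell: Zkscan3, a repressor of lysosomal genes, at -0.26 ± 0.05 (limma adjusted p = 0.008), and Ppp3cb, a catalytic subunit of the phosphatase calcineurin, at -0.28 ± 0.07 (limma adjusted p = 0.028). Ppp3r1, its regulatory subunit, gave 0.30 ± 0.10 and was not called (limma adjusted p = 0.089). Of these 12 regulators 8 lay above the negative controls on all 12 arrays, but neither Zkscan3 nor Ppp3cb was among the 8.

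The 34 other lysosomal membrane genes held the only rises in these lists, with 5 higher and 3 lower. The 3 include the targeted gene Slc29a3. Of the 34 genes 14 lay above the negative controls on all 12 arrays, and of these 2 rose and 1 fell. Cd68, a glycoprotein related to the LAMPs and abundant in macrophages, ran from 6.55 to 8.03 (median 7.16) in WT and from 8.07 to 12.05 (median 9.77) in KO. The groups did not overlap, and the difference was 2.40 ± 0.49 (limma adjusted p = 0.013). Laptm5, a lysosomal protein of blood cells, rose by 2.12 ± 0.28 (limma adjusted p = 0.002), and the others were Slc11a1 (1.65), Slc15a3 (1.58) and Sppl2a (0.61). Slc29a3 itself was lower by the label check above, at -0.94 ± 0.07, and Mfsd8, a transporter lost in a form of Batten disease, fell by 0.36 on the log2 scale (SE 0.06, limma adjusted p = 0.005).

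Markers of other liver cells moved with the genotype beside these results. The counts of called markers stand beside 5.28% of all features higher and 4.47% lower. Among the named genes above the negative controls on all 12 arrays these shares were 12.4% and 22%. Of 16 macrophage markers 11 rose and 1, Cd163, fell. The mean signal of the list ran from 6.97 to 8.02 in WT mice and from 8.44 to 11.53 in KO mice, while Trem2 lay at 3.55 in WT and 3.52 in KO. Of 12 neutrophil markers 9 rose, and their mean ran from 4.17 to 4.67 in WT and from 5.01 to 8.10 in KO. None of these 12 lay above the negative controls on all 12 arrays, and 6 lay within them in every mouse. Of 12 endothelial and stellate markers 3 rose (Pecam1, Lyve1 and Cdh5) and 2 fell (Clec4g and Kdr), with a mean of 7.86 to 8.35 in WT and 7.76 to 8.99 in KO. Of 10 lymphocyte markers 2 rose (Cd79b and Jchain), with a mean of 3.94 to 4.16 in WT and 4.04 to 4.66 in KO. All 10 lay within the negative controls in every mouse. Of 5 cholangiocyte markers 1 rose, Tff3, by 6.51 ± 1.57, and their mean ran from 4.26 to 5.57 in WT and from 4.93 to 6.95 in KO. None of these 5 lay above the negative controls on all 12 arrays, and 3 lay within them in every mouse. The defining hepatocyte genes Alb, Apoa1, Ttr, Cps1 and Cyp2e1 stood at the ceiling of the arrays in all mice, which fits the labelled tissue, and 1 of 9 measured hepatocyte markers, Asgr1, fell, by 0.84. The part of this cell makeup in the differences of Npc2, Slc17a5, Ctns and the Ragulator genes was not tested, and in whole liver fewer cells of a type cannot be told apart from less RNA per cell.

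**Figure D5:**
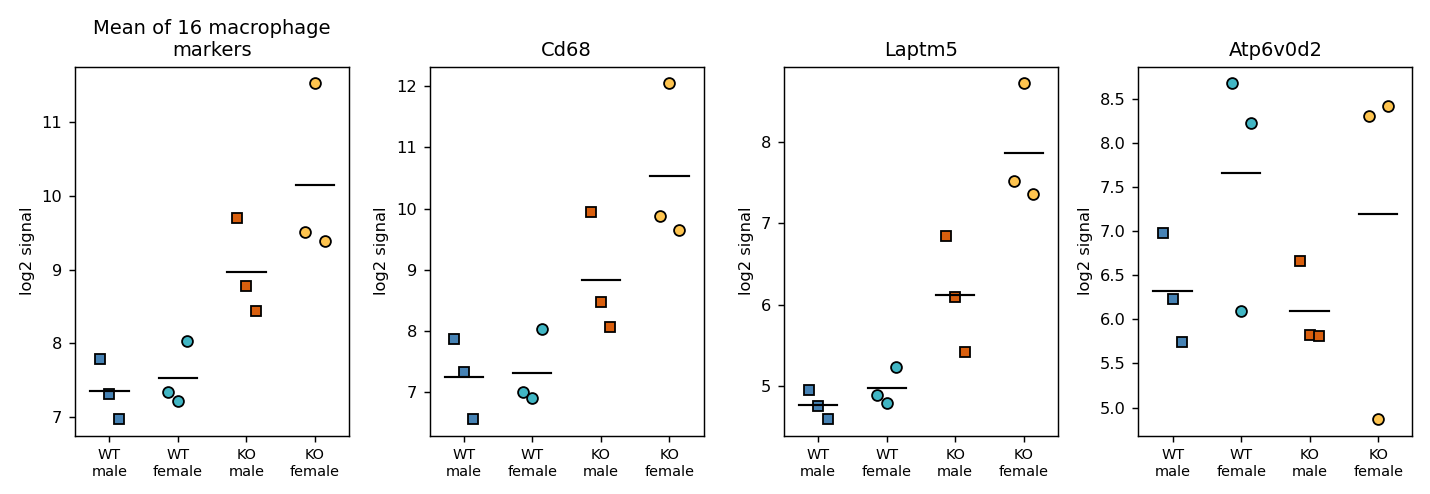
Log2 signal in each mouse, by group, of the mean of 16 macrophage markers, of the lysosomal genes Cd68 and Laptm5, and of the pump subunit Atp6v0d2. Bars mark means of 3 mice, and axes do not start at 0. In the left 3 panels all KO mice lie above all WT mice, while for Atp6v0d2 the genotypes overlap and KO female 40, highest for the markers, is lowest.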

How the data were processed

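The values are the log2 signals per feature that the authors deposited. Per the submitters' processing notes, the tool was Transcriptome Analysis Console. The sources used here name no background correction, normalisation or genome build. Values pass 16, the highest log2 value of a 16-bit scanner, and end at 19.93, so folds are those of the deposited scale.

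Of 72688 features in the table, 6732 are controls and were kept out of the tests. Gene symbols came from the platform's annotation: of 65956 transcript features 30604 had 1 symbol, 2146 several and 33206 none. A gene was read from its feature with the highest mean. The 42 genes and all lists were chosen with earlier results of these data known.

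Group means of the 4 groups were fitted to all 12 arrays with limma 3.58.1 (lmFit and eBayes) in R 4.3.3, with 8 residual degrees of freedom and Benjamini-Hochberg adjustment over all transcript features. Contrasts were KO minus WT over both sexes and within each sex, and the interaction; female minus male was added after the data were seen. The script was tested on simulated data. Genes given with values in every mouse were those called in a contrast and the one with the highest signal in each role group (Lamp2, the highest of its group, was flat); of the other pathway lists, the called gene with the largest difference in each direction and the 3 with the smallest unadjusted p. Values of single mice for Atp6v0d2, Atp6v1g1, Npc1, Lamtor4 and other genes outside this rule were chosen after they were seen. Alternatives were quantile normalisation, centring on array medians, the mean over a gene's features, a filter on dim features, a poly-A covariate, a variance trend with robust fitting, no sex term and leaving out each mouse. Promoters came from RefSeq on GRCm38.p6 and were matched by symbol. The number of arrays limits the precision.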

Additional observations from a re-analysis of the deposited data

How the results depend on the processing

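None of the 7 called genes changed sign under any alternative that gave it a value. The dim filter left out Npc2, Tmem175 and Flcn. Of the uncalled genes 18 changed sign under at least 1 alternative. Slc17a5, Ctns, Lamtor2 and Lamtor3 were called without each of the 12 mice in turn. Of the uncalled genes 6 (Atp6v0a1, Atp6v0a2, Atp6v1g1, Lamp1, Cln3 and Lamtor4) were called in at least 1 alternative.

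The count of 1 gene higher in KO became 0 with array median centring, 0 with the poly-A covariate, 0 with no sex term and 2 (Atp6v1g1 and Lamp1, without Npc2) with the dim filter, and it ran from 0 to 2 as mice were left out. The count of 6 lower became 0 with the poly-A covariate and 2 (Lamtor2 and Tmem175) with no sex term. With that covariate only 3 of all 65956 features were called. The poly-A mean itself differed between the genotypes, so the fit can hardly separate it from genotype. The dim filter kept 29 of the 41 genes and 10483 features. Of these features 21.8% were higher and 25.8% lower in KO, against 5.28% and 4.47% in the main fit. Beside these shares, 2 of the 29 genes were higher and 7 lower. In males the dim filter gave 1 gene lower. It also gave 4 genes with the higher level in males for female against male, an added comparison. In females the count of 0 higher became 1 with quantile normalisation and 2 with the dim filter, and ran from 0 to 1 without single mice. The count of 3 lower in females became 5 with quantile normalisation, 7 with centring, 5 with the dim filter and 0 with the poly-A covariate, and ran from 1 (without WT female 38) to 5 without single mice. In females Ctns lost its call without WT female 38 (limma adjusted p = 0.066), and Lamtor2 without WT female 38 (0.064) or KO female 69 (0.054). Lamtor3 lost its call over both sexes when its features were averaged (limma adjusted p = 0.198) or with the variance trend (limma adjusted p = 0.111). For the other pathway genes, the 5 higher became 9 with the dim filter and 0 with the poly-A covariate, and the 17 lower became 10 and 0; without single mice the latter ran from 11 to 16. With the poly-A covariate Npc2 gave 0.84 and Flcn -0.52, against 0.46 and -0.31. The cause of these changes was not tested. No paired analysis was possible because the groups share no replicate numbers. Signals within the negative controls limit what can be read for 10 genes, and the flat Lamp2 feature gives no reading.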
